A study of Homo sapiens with 32 samples.

Results

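The genes described here are 40 human genes that act in mitosis, chosen by symbol from the 19345 genes of a transcript table of EPC2 cells. EPC2 is a line of human esophageal epithelial cells immortalized with hTERT, with a wild-type genotype in every group. The 40 were sorted by role into 9 kinases and cyclins of mitotic entry, 6 genes of the spindle checkpoint and the anaphase-promoting complex, 5 centromere and kinetochore genes, 7 kinesin motors, 7 genes of spindle assembly and microtubule binding, 4 genes of the chromosomal passenger complex and cytokinesis, and 2 genes of chromosome structure. The cells were followed through 4 states in 32 libraries. The first was the monolayer on day 0, before seeding (10 libraries). The second was the spheroid on day 3, after growth in Matrigel droplets in keratinocyte serum-free medium with raised calcium (9 libraries); the kinase inhibitor Y27632 was present until that day. The third was the untreated spheroid on day 11 (7 libraries). The fourth was the day 11 spheroid kept with interleukin-13 (IL-13), a type 2 cytokine, at 20 ng/ml from day 3 (6 libraries). All libraries came from 1 cell line in 2 independent experiments, called batches 1 and 2 in the labels. Nothing in the labels says that libraries of a group came from separate cultures, so the p-values measure the spread between these libraries, which may be technical. Levels are in TPM, a transcript's share of all transcripts in its library after correction for gene length, so that a level can be compared between genes.

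Mitosis is driven by cyclin-dependent kinase 1 with its A and B cyclins, which phosphorylate the proteins that condense chromosomes and build the spindle. Kinetochores attach each chromosome to spindle microtubules, and the spindle checkpoint holds the anaphase-promoting complex inactive until all are attached. The complex then marks securin and cyclin B for destruction, the sister chromatids part, and the chromosomal passenger complex and a kinesin-built midzone direct cytokinesis. Most of these genes are transcribed only late in the cell cycle; the DREAM complex keeps them silent in resting cells, and B-MYB with MuvB and FOXM1 switches them on. In stratified squamous epithelium, cells divide in the basal and parabasal layers and leave the cycle as they differentiate.

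The libraries had the markers of squamous basal epithelium. KRT5 and KRT14, the basal keratins, had medians of 13450.8 and 6532.4 TPM in the monolayer and 25030.4 and 33000.8 TPM in untreated day 11 spheroids. TP63 ranged from 10.4 to 26.1 TPM and CDH1 from 13.5 to 25.8 TPM, whereas EPCAM, a marker of simple epithelium, did not exceed 0.4 TPM. Together the 13 markers of fibroblasts, immune cells, endothelium and melanocytes reached 0 to 1.9 TPM a library. Several libraries stood apart from others of their group. On day 3, libraries 1, 3, 4, 5 and 6 had SPRR1A, a cornified envelope precursor, at 3931.3 to 4768.7 TPM and 39.1 to 45.8% of their transcripts from mitochondrial genes. Libraries 2, 7, 8 and 9 had SPRR1A at 190.7 to 559.8 TPM and 53.1 to 57.1% from mitochondrial genes. Library 4 carries the label of batch 1 and library 7 that of batch 2, against the other libraries at their level. Under IL-13, library 1 had IVL, another envelope precursor, at 184.2 TPM and the keratin KRT13 at 100.1 TPM, where libraries 2 to 6 had 45.2 to 89.5 and 205.4 to 278 TPM. Untreated day 11 spheroids had IVL at 335.5 to 578.5 TPM and KRT13 at 8.3 to 16.2 TPM. The main limma counts of the mitosis genes that rest on these libraries are given with and without them, as are the mitosis genes whose call changed without IL-13 library 1.

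The mitosis genes were abundant in the monolayer, lower on day 3 and far lower in untreated day 11 spheroids, except PTTG1, which encodes securin, the inhibitor that holds separase until anaphase. The 39 other genes summed to a lowest value of 950.2, a median of 1401 and a highest value of 1914.2 TPM in the monolayer, and to 554.1, 657.6 and 1105.4 TPM on day 3. In untreated day 11 spheroids the same sum was 33.9, 47.2 and 52.1 TPM. Monolayer and day 3 libraries overlapped, and every untreated day 11 library lay far below both. PTTG1 took 2.07 to 2.56% of the summed TPM of all 40 genes in the monolayer, 3.84 to 6.42% on day 3 and 45.8 to 64.2% in untreated day 11 spheroids. In bulk libraries such as these, fewer dividing cells and less RNA per cell cannot be told apart.

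**Figure D1:**
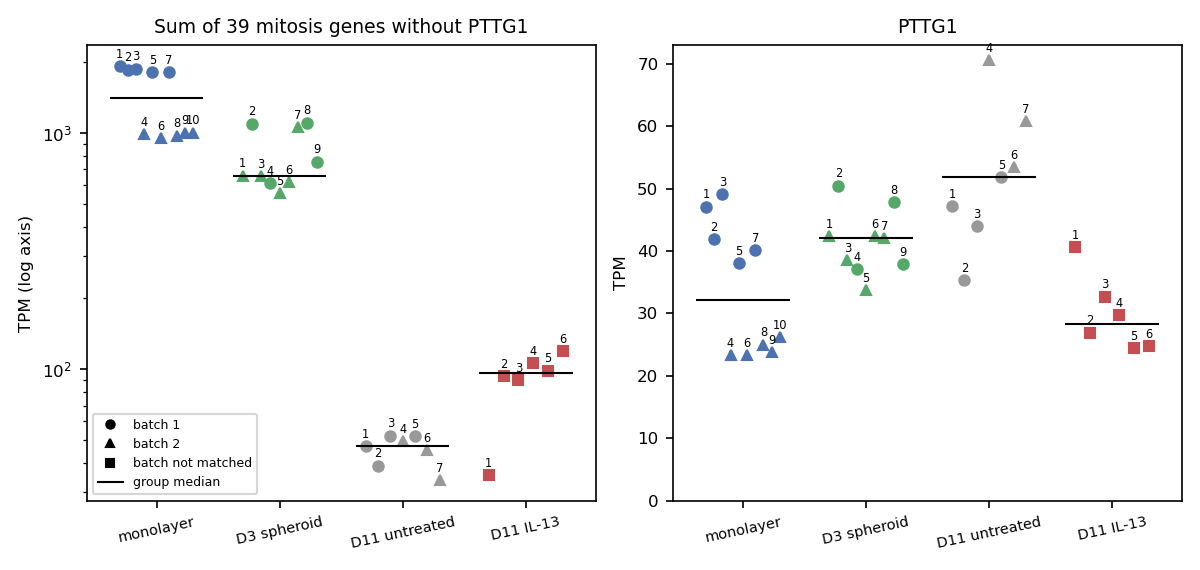
Summed TPM of 39 mitosis genes (left, log axis) and TPM of PTTG1 (right, linear axis) in each of the 32 libraries, with a line at each group's median and symbols by batch. The sum of the 39 was 950.2 to 1914.2 TPM in the monolayer and 33.9 to 52.1 TPM in untreated day 11 spheroids, while PTTG1 lay between 23.3 and 70.6 TPM over these groups.

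In the monolayer, CDC20, the activator of the anaphase-promoting complex, and MKI67, which coats mitotic chromosomes and is the source of the Ki-67 stain, had the highest levels of the 40. CDC20 was at 147.6 TPM in the lowest, 249.9 in the median and 355.4 in the highest monolayer library, and MKI67 at 118.1, 177.05 and 237.3 TPM. The ranges of these genes overlapped. CCNA2 (cyclin A2, median 97.3 TPM) and CCNB1 (cyclin B1, 92.7 TPM) came next, followed by UBE2C, the ubiquitin-conjugating enzyme of the anaphase-promoting complex (77.8 TPM). BIRC5 (survivin), PLK1 (polo-like kinase 1), the kinesin KIF20A and TOP2A (topoisomerase II alpha) had medians of 64.6, 61.8, 60.8 and 59.15 TPM, with ranges that overlapped. At the other end, KIF4A, NUF2, CDC25C, KIF15 and NUSAP1 had medians of 2.1, 2, 1.3, 1.25 and 0.2 TPM. NUSAP1, a microtubule-bundling protein, did not exceed 0.5 TPM in any library and was the 1 gene of the 40 that failed the filter of at least 1 TPM in at least 6 libraries. It shares exon bases with the protein-coding gene AC087721.2 on the same strand, so how shared reads were assigned could affect its level. The other 39 entered the tests, which were run over all 12221 genes that passed.

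**Figure D2:**
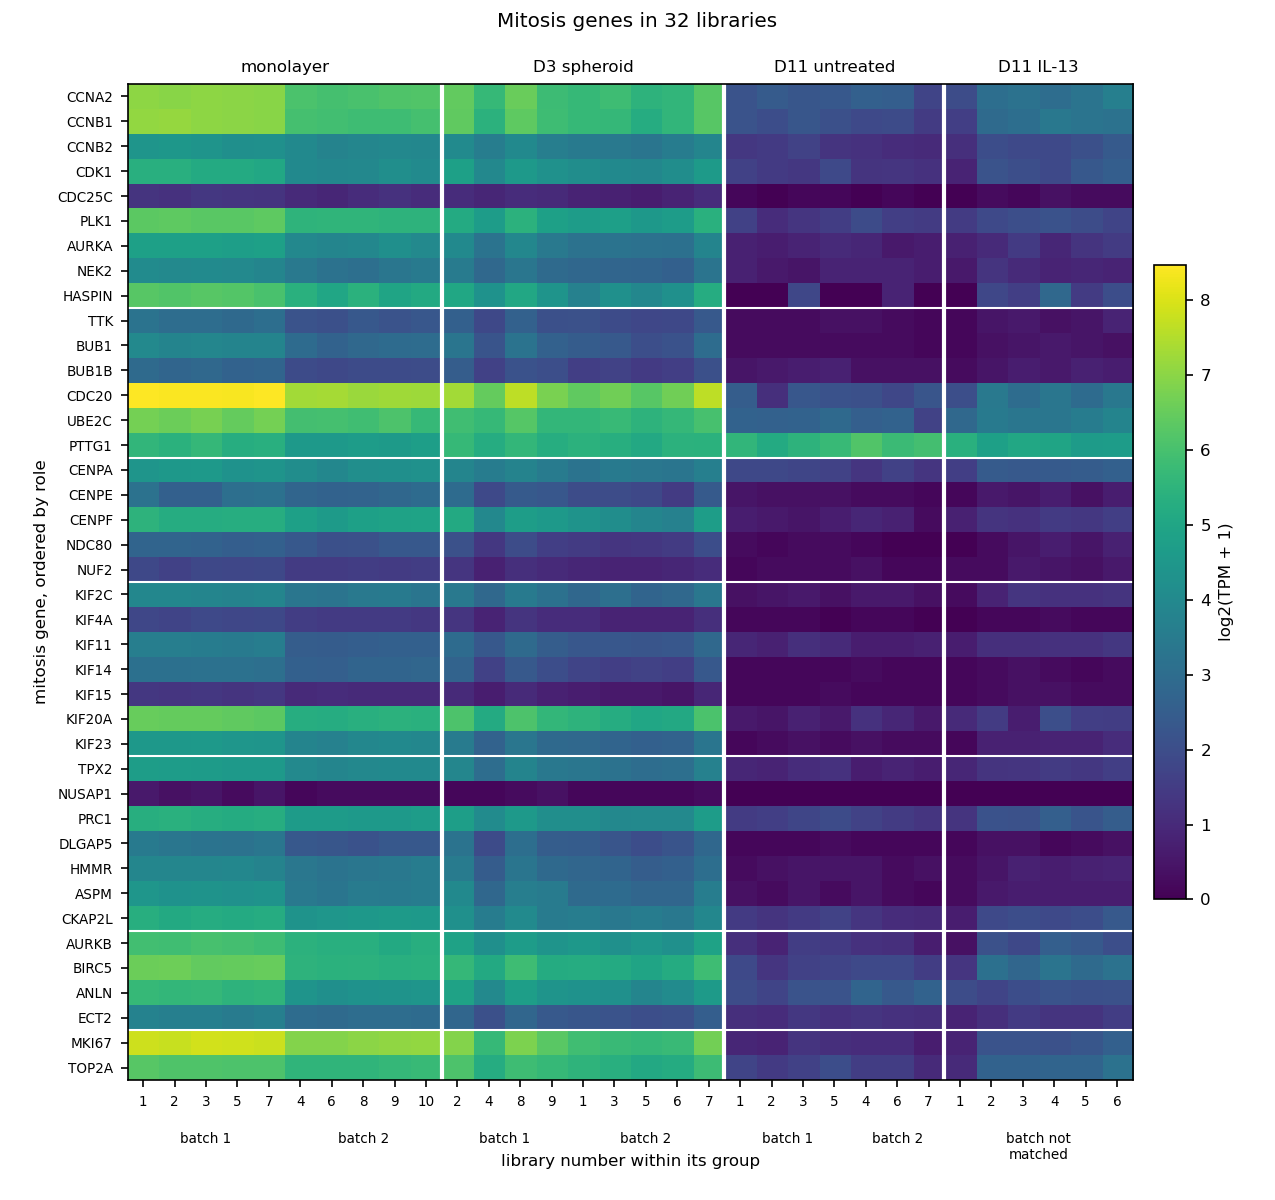
Level of each of the 40 mitosis genes, as log2(TPM + 1), in each of the 32 libraries, with genes ordered by role and libraries by group and batch. The colour drops between the day 3 and day 11 columns in every role, and the row of PTTG1 shows no such drop.

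The first comparison asked how the genes moved as monolayer cells became day 3 spheroids. Of the 39 tested, 34 were lower and PTTG1 was higher on day 3 by limma at a Benjamini-Hochberg adjusted p below 0.05. Of all genes tested, 68.2% were lower and 12.7% higher, so the share of lower calls was above the background in a comparison where most genes were lower. The median log2 change of log2(TPM + 1) was -0.65 over the 39 and -0.44 over all genes tested, and 32 of the 39 lay below the latter. Every library on day 3 lay below every monolayer library for 8 of the 39 (PLK1, CENPA, NUF2, KIF4A, KIF23, CKAP2L, AURKB and ECT2), against 39% of all genes tested.

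MKI67 fell from 118.1, 177.05 and 237.3 TPM (lowest, median, highest) in the monolayer to 48.7, 58.1 and 118.1 TPM on day 3, a log2 change of -1.24 ± 0.18 (standard error; limma adjusted p = 1.9e-07). The highest day 3 library equalled the lowest monolayer library. KIF23, the motor subunit of the centralspindlin complex of the midzone, was at 12.2, 17.95 and 22.6 TPM in the monolayer and at 5, 6.2 and 10.6 TPM on day 3, with no overlap. Its log2 change was -1.22 ± 0.12 (limma adjusted p = 6.3e-11). HASPIN, the kinase that marks histone H3 for the passenger complex, had the next largest change (-1.18 ± 0.27, limma adjusted p = 0.00021), with its day 3 range of 12.3 to 37.1 TPM overlapping the monolayer range of 29.9 to 76.2 TPM. HASPIN is an intronless gene that lies inside ITGAE on the opposite strand (hg38, chr17:3723903-3726699), and whether reads were counted by strand is not given in the sources used here.

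By role, 8 of the 9 kinases and cyclins fell on day 3, a count that the rescaling described below reduced to 3. CCNA2 went from 61.6, 97.3 and 130.9 TPM to 43.3, 54.8 and 91.9 TPM (log2 change -0.59 ± 0.17, limma adjusted p = 0.0023), with overlap. CDC25C, the phosphatase that activates cyclin-dependent kinase 1, was low in both states, at 0.9 to 1.6 and 0.6 to 1.1 TPM, and fell by 0.24 ± 0.05 (limma adjusted p = 0.00015), but was at 0.04 with rescaling. CDK1 itself was the exception in this role, with a change of -0.32 that did not pass (limma adjusted p = 0.084). Of the checkpoint and anaphase-promoting complex genes, 5 of 6 fell, led by CDC20, which was at 76, 99.6 and 197.5 TPM on day 3 (-0.96 ± 0.21, limma adjusted p = 0.00013) and overlapped the monolayer. All 5 centromere and kinetochore genes fell; CENPF, a kinetochore protein of the fibrous corona, went from 23.7, 33.3 and 44.1 TPM to 12.3, 19.3 and 34.5 TPM (-0.69 ± 0.13, limma adjusted p = 2.6e-05), with overlap.

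Of the kinesins, 6 of 7 fell on day 3, and KIF20A, which carries the passenger complex to the midzone, did not pass. KIF20A had 37.2, 60.8 and 89.5 TPM in the monolayer and 31.3, 43.5 and 68.5 TPM on day 3 (-0.31 ± 0.18, limma adjusted p = 0.12). Among spindle genes, 5 of 6 tested fell. PRC1, the bundler of midzone microtubules, went from 22.7, 30.5 and 40.4 TPM to 14.7, 17.3 and 26.1 TPM (-0.66 ± 0.13, limma adjusted p = 2.9e-05), with overlap. DLGAP5, which stabilizes spindle microtubules at kinetochores, was the exception in that role, at 3.4, 6.15 and 10 TPM before and 2.8, 4.5 and 8.3 TPM after (-0.28 ± 0.14, limma adjusted p = 0.068). All 4 passenger and cytokinesis genes fell, BIRC5 from 40.2, 64.6 and 95.7 TPM to 29.8, 36 and 56 TPM with overlap (-0.58 ± 0.20, limma adjusted p = 0.0086). TOP2A, which untangles sister chromatids, changed by -0.31 and did not pass (limma adjusted p = 0.093).

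PTTG1 moved the other way on day 3 over both batches together, but not within batch 1 alone. It was at 23.3, 32.15 and 49.1 TPM in the monolayer and at 33.7, 42.1 and 50.5 TPM on day 3, with overlapping ranges and a log2 change of 0.35 ± 0.14 (limma adjusted p = 0.023). In the monolayer its level split by batch, at 38.1 to 49.1 TPM in batch 1 and 23.3 to 26.2 TPM in batch 2. Its change was -0.004 within batch 1 alone (limma adjusted p = 0.98) and 0.69 within batch 2 alone (limma adjusted p = 4.9e-06). PTTG1 has near-identical copies elsewhere in the genome, so how shared reads were assigned could affect its level; the copy PTTG2 was listed at 0 to 2.4 TPM.

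How many of the genes were lower on day 3 depended on the scale. After the libraries were rescaled by the median of ratios to a reference, the median change of all genes moved from -0.44 to -0.01, and the background became 33.2% lower and 33.2% higher. On that scale 16 of the 39 were lower, PTTG1 was higher (0.87 ± 0.16, limma adjusted p = 2.7e-05), and the median of the 39 was -0.16. MKI67 remained lower on it (-0.70, limma adjusted p = 0.00065), while CDC20 at -0.42 (limma adjusted p = 0.079) and BIRC5 at -0.05 (limma adjusted p = 0.84) did not pass. KIF20A (0.22), TOP2A (0.22), CDK1 (0.20), DLGAP5 (0.18), CCNB2 (0.05), UBE2C (0.04) and CDC25C (0.04) changed sign on that scale, none of them past the threshold by limma. By role, lower calls were then 3 of 9 kinases and cyclins, 0 of 6 checkpoint genes, 3 of 5 centromere genes, 4 of 7 kinesins, 3 of 6 spindle genes, 2 of 4 passenger and cytokinesis genes and 1 of 2 genes of chromosome structure. Within batch 1 alone 38 of the 39 were lower on day 3, where 68% of all genes were lower and 11.1% higher. Within batch 2 alone 27 were lower and 1 higher, against 63.4% and 15.6%. Without day 3 libraries 4 and 7, 34 were lower and 1 higher, against 67.7% and 12.5%.

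The day 3 libraries themselves differed. The sum over all 40 genes was 587.8 to 700 TPM in libraries 1, 3, 4, 5 and 6, which were those with high SPRR1A and fewer mitochondrial transcripts, 791.6 TPM in library 9 and 1095.4 to 1153.2 TPM in libraries 2, 7 and 8. A low sum went with high SPRR1A across the batch labels, and the part of either in the other was not tested.

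**Figure D3:**
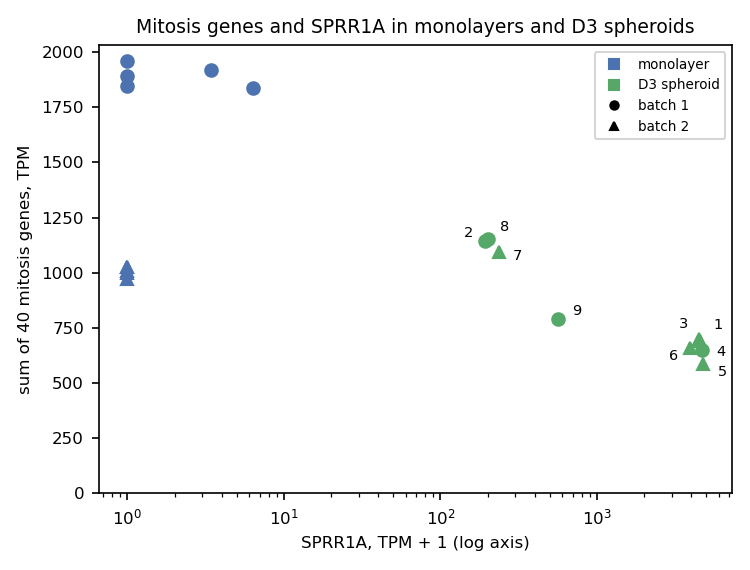
Summed TPM of the 40 mitosis genes in each monolayer and day 3 library against the TPM of SPRR1A plus 1 (log axis), with day 3 libraries numbered. Libraries 1, 3, 4, 5 and 6 lie together at 587.8 to 700 TPM and high SPRR1A, apart from libraries 2, 7, 8 and 9.

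The second comparison asked what became of the genes between day 3 and day 11 without treatment. Of the 39 tested, 38 fell and none rose, and for each of the 38 every untreated day 11 library lay below every day 3 library. Of all genes tested, 35.8% were lower and 33.6% higher by limma, and 19% lay below in all libraries. The median log2 change was -2.53 over the 39 and -0.02 over all genes. The group mean on day 11 was a median of 6.35% of the day 3 mean over the 40 genes, and 14 of the 40 reached 1 TPM in no day 11 library of either treatment. Of these, 13 entered the tests solely through monolayer and day 3 libraries, where they are high. NEK2, KIF23, KIF2C, CENPF and AURKA reached 1 TPM in too few day 11 libraries to pass by those alone, and entered the same way. The counts over the 39, and the p-values of these genes, thus describe the genes and do not support the fall of each.

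MKI67 had the largest fall. From 48.7, 58.1 and 118.1 TPM on day 3 it went to 0.6, 1.1 and 1.4 TPM, a log2 change of -5.21 ± 0.19 (limma adjusted p = 4.4e-20), which left 1.37% of the day 3 mean. CDC20 was at 76, 99.6 and 197.5 TPM on day 3 and at 1.2, 3.4 and 4.6 TPM on day 11 (-4.91 ± 0.23, limma adjusted p = 1.2e-17). For both genes the groups were far apart. KIF20A, which had not passed between monolayer and day 3, went from 31.3, 43.5 and 68.5 TPM to 0.4, 0.5 and 1.3 TPM (-4.87 ± 0.20, limma adjusted p = 7.1e-19).

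All 9 kinases and cyclins fell between day 3 and day 11. CCNA2 reached 2.3, 4 and 5.1 TPM (-3.69 ± 0.19, limma adjusted p = 7.9e-17), and CCNB1 went from 37.4, 49.9 and 84 TPM to 1.8, 3 and 3.8 TPM (-3.95). HASPIN was listed at 0 in 5 untreated libraries and at 0.8 and 2.5 TPM in the other two (-4.17, with 2.08% of the day 3 mean left). Cyclins A2 and B1 were thus still listed in every library, whereas HASPIN was not. CDK1 went from 14.2, 16.8 and 26.9 TPM to 1.3, 1.6 and 2.7 TPM, and PLK1 from 21.8, 26.6 and 42.3 TPM to 1.1, 1.9 and 2.8 TPM. CDC25C, at 0.6 to 1.1 TPM on day 3, was at 0 to 0.1 TPM, where a fold on the log2(TPM + 1) scale understates the change.

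Of the 6 checkpoint and anaphase-promoting complex genes, 5 fell. The checkpoint kinases TTK and BUB1 went from 2.5, 3.2 and 5.2 TPM and 3.1, 4.5 and 8.8 TPM to 0.1, 0.2 and 0.3 TPM and 0.1, 0.2 and 0.2 TPM. UBE2C kept 9.2% of its day 3 mean, at 2.2, 5.3 and 6.4 TPM. Among centromere genes, all 5 fell, but unequally. CENPF went to 0.2, 0.6 and 0.9 TPM (-3.78 ± 0.15, limma adjusted p = 1.3e-19), with 2.71% left. CENPA, the histone H3 variant that marks centromeres and is inherited through divisions, went from 8.4, 10.4 and 13.6 TPM to 1.5, 2.2 and 2.6 TPM, with 20.1% left. Each of these genes was below its day 3 range in every day 11 library.

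All 7 kinesins fell. KIF23 went to 0.1, 0.2 and 0.3 TPM, and KIF15, a spindle motor at 0.4 to 1 TPM on day 3, to 0.1, 0.1 and 0.2 TPM (-0.62 ± 0.06, limma adjusted p = 3.9e-10), the smallest log2 change of the 38. By share of the day 3 mean KIF15 kept 16.6%, less than ECT2, CENPA, ANLN, NUF2 and KIF11. KIF11, the motor that pushes spindle poles apart, kept 16.7% of its day 3 mean, at 0.6, 0.7 and 1.2 TPM, where KIF20A kept 1.43%. The 6 tested spindle genes fell. PRC1 was at 1.5, 2 and 2.8 TPM on day 11 (-2.72 ± 0.14, limma adjusted p = 1.3e-16). ASPM, which focuses spindle poles, went from 6, 6.8 and 15.4 TPM to 0.1, 0.2 and 0.4 TPM.

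The 4 passenger and cytokinesis genes fell, and those of the cytokinetic furrow kept more than those of the passenger complex. BIRC5 went to 1.5, 2.3 and 2.7 TPM (-3.72 ± 0.22, limma adjusted p = 2e-15), with 5.52% left, and AURKB, the kinase of the same complex, kept 5.63%. ANLN (anillin), a scaffold of the contractile ring, kept 19.6%, at 2.3, 3.5 and 5.6 TPM. ECT2, the exchange factor that activates RhoA at the furrow, kept 31.3%, at 1.1, 1.3 and 1.6 TPM after 3.1, 3.8 and 6 TPM on day 3. TOP2A fell from 33.4, 44.2 and 67.8 TPM to 1, 1.9 and 3 TPM.

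PTTG1 did not fall on day 11. Its level was 35.3, 51.9 and 70.6 TPM over the 7 untreated libraries (47.2, 35.3, 44, 70.6, 51.9, 53.5 and 60.8 TPM in libraries 1 to 7), against 33.7, 42.1 and 50.5 TPM on day 3. The groups overlapped and the log2 change of 0.27 ± 0.15 did not pass (limma adjusted p = 0.11). Its mean was 125% of that on day 3, the highest of the 40, followed by ECT2 at 31.3%. The direction depended on the scale. Mitochondrial genes supplied 39.1 to 57.1% of transcripts on day 3 and 14.8 to 27.9% in untreated day 11 spheroids, and with them taken out before scaling PTTG1 was lower on day 11 (-0.32, limma adjusted p = 0.049), as were all 39 genes tested. The background on that scale was 65.7% lower and 13.6% higher. With libraries weighted by their quality PTTG1 changed by -0.29 (limma adjusted p = 0.079), and within batch 2 alone by 0.61 (limma adjusted p = 7.7e-05).

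**Figure D4:**
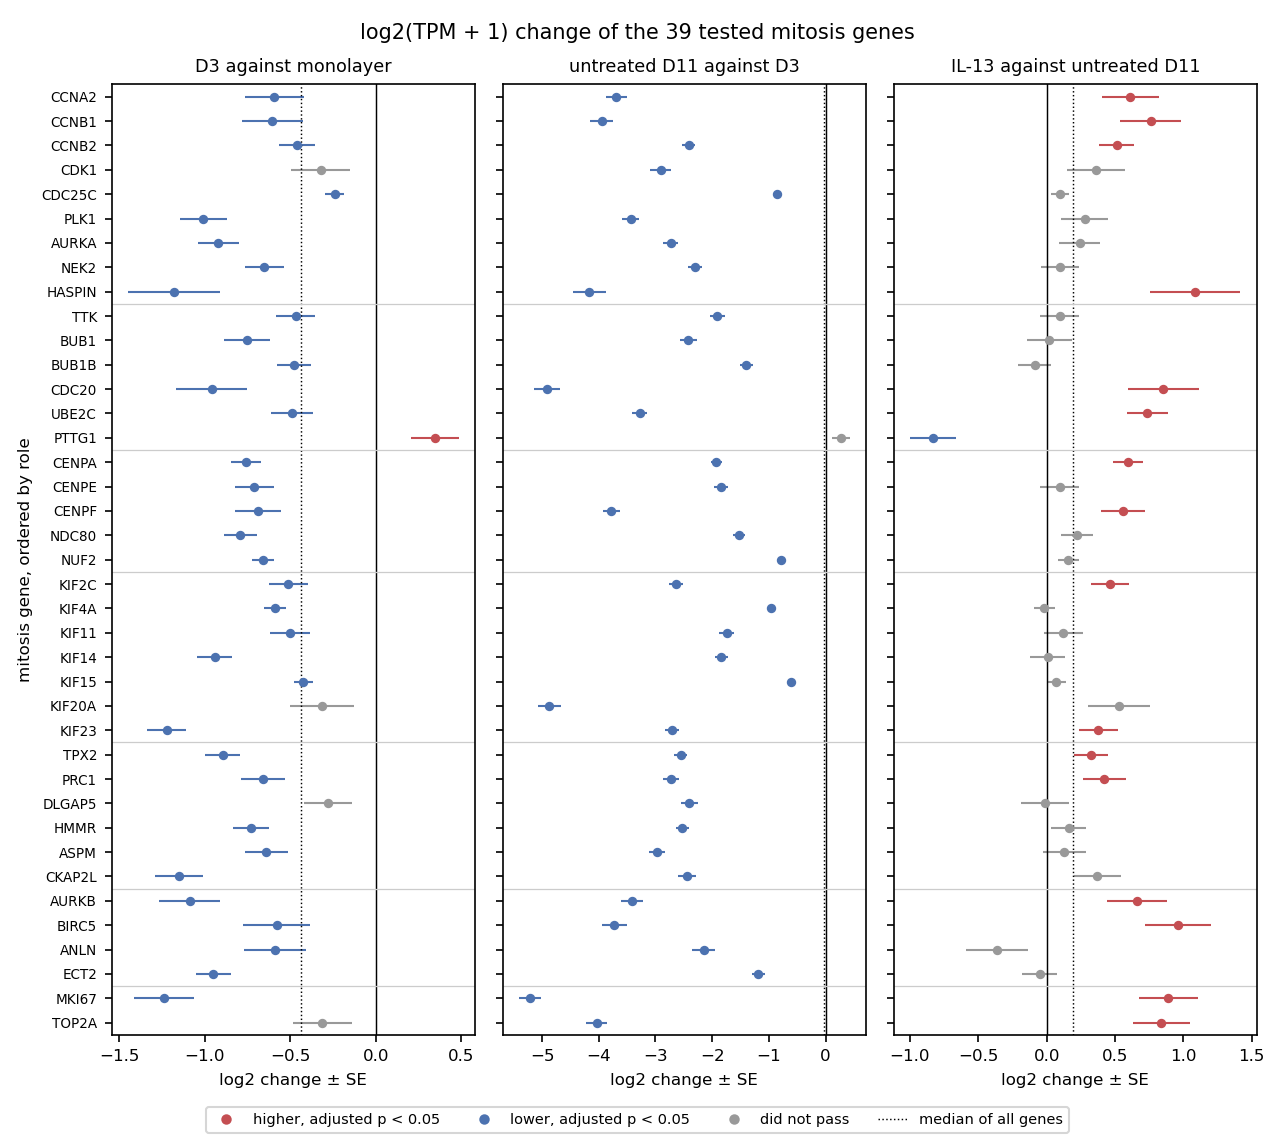
Log2 change of log2(TPM + 1) with its standard error for the 39 tested mitosis genes in 3 comparisons, coloured by whether the gene was lower, higher or did not pass, with a dotted line at the median of all genes tested. Between day 3 and day 11 all but PTTG1 lie to the left, from -0.62 for KIF15 to -5.21 for MKI67.

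Against the monolayer, untreated day 11 spheroids had 38 of the 39 genes lower and PTTG1 higher, where limma called 63.5% of all genes tested lower and 21% higher. Every day 11 library lay below every monolayer library for all 38 (45.3% of all genes tested lay below). With rescaling the calls were 1 higher and 38 lower, and the background 40.2% higher and 40.1% lower. This comparison shares its libraries with those above and is not separate evidence. Genes that passed the filter only through monolayer and day 3 libraries are among the 38 here too. Their part in these counts describes the genes and does not support the fall of each. MKI67 changed by -6.45 ± 0.19 (limma adjusted p = 1.8e-23), CDC20 by -5.87 ± 0.22 (limma adjusted p = 1.3e-20) and KIF15, the smallest log2 change of the 38, by -1.04. PTTG1 changed by 0.62 ± 0.15 (limma adjusted p = 0.00034), but by 0.05 with mitochondrial genes taken out (limma adjusted p = 0.72), by 0.04 in batch 1 alone (limma adjusted p = 0.8) and by 0.22 with weighted libraries (limma adjusted p = 0.057).

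Because nearly all of these genes moved together, the sequence upstream of each gene was searched for the elements known to govern such genes. The cell cycle genes homology region (CHR, letters TTTGAA or TTCGAA) is bound by the LIN54 subunit of DREAM and MuvB, and CCAAT boxes (letters CCAAT) are bound by NF-Y. The RefSeq promoter table (GRCh38.p14; 250 bases before to 50 after the start) held 34 of the 40. It was searched on both strands, and matches of different elements may overlap. AURKA, BIRC5, TPX2, TTK, UBE2C and HASPIN were not searched. A CHR match was present in 26 of the 34 (76.5%) and in 19.5% of all promoters of the table. A CCAAT match was present in 27 (79.4%), against 39.7% of all, and both elements in 21 (61.8%), against 7.85% of all. An E2F match (letters TTTCGCGC, TTTGGCGC or TTTCCCGC) was present in 4 (11.8%), against 3.3% of all. A match is a run of letters, not a measured binding site.

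Stretches of 140 bases are shown to set the genes with the largest falls on the log2(TPM + 1) scale (MKI67, CDC20) beside those with the highest shares of the day 3 mean left (ECT2, PTTG1). Each ends before the first annotated exon, lies on the gene's strand and has its CHR and CCAAT matches, on either strand, in capitals. They lie at chr10:128126424-128126563 (minus strand) for MKI67, chr1:43358815-43358954 (plus) for CDC20, chr3:172750542-172750681 (plus) for ECT2 and chr5:160421682-160421821 (plus) for PTTG1.
MKI67: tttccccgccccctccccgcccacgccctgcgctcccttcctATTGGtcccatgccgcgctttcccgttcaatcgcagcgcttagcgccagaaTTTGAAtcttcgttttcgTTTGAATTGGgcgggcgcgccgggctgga
CDC20: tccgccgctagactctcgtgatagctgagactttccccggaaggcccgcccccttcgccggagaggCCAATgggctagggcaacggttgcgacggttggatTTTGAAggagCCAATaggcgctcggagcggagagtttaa
ECT2: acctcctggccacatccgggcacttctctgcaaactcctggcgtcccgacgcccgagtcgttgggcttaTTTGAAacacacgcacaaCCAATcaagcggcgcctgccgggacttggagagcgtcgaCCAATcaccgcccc
PTTG1: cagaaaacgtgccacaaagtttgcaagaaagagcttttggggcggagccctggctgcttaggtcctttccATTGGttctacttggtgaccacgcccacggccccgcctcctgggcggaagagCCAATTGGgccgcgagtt
MKI67 holds 2 CHR and 2 CCAAT matches, the last of each overlapping, while CDC20 and ECT2 each hold 1 CHR and 2 CCAAT matches. PTTG1 holds 3 CCAAT matches and no CHR match in the stretch or the whole window. CCNA2, CCNB1, NEK2, CENPE, KIF2C, KIF20A and AURKB also had no CHR match, and all 7 fell between day 3 and day 11, KIF20A to 1.43% of its day 3 mean. Only the letters TTTGAA and TTCGAA were searched, in this window alone, and a link between a match and the fall was not tested. The share of the day 3 mean left on day 11 had a median of 6.35% (0 to 31.3%) in the 26 genes with a CHR match and of 6.04% (1.43 to 125%) in the 8 without. The 0 was that of NUSAP1, which was at only 0.1 to 0.3 TPM on day 3.

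The third comparison asked what IL-13 from day 3 to day 11 did to the genes. Against untreated day 11 spheroids, 16 of the 39 rose, PTTG1 fell and 22 did not pass. Of all genes tested, 39.2% were higher and 8.49% lower by limma, so the share of the mitosis genes that rose was near the background on this scale. The median change was 0.28 over the 39 and 0.19 over all genes. None of the 39 had all 6 IL-13 libraries above or below all untreated ones, against 9.66% above and 4.03% below among all genes tested.

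IL-13 library 1 stood apart from the other IL-13 libraries. The sum of the 39 genes other than PTTG1 was 35.4 TPM in library 1, inside the untreated range of 33.9 to 52.1 TPM, and 89.6 to 118.9 TPM in libraries 2 to 6. Library 1 was singled out partly by this sum, and leaving it out favours the changes seen in libraries 2 to 6. Results without it are therefore no separate evidence of a change. Without library 1, 21 of the 39 were higher and PTTG1 lower, where limma called 50.2% of all genes higher and 8.4% lower. The share of higher calls was thus near the background. In 18 of the 39, libraries 2 to 6 all lay above the 7 untreated libraries, against 32.1% of all genes tested, and in PTTG1 all lay below (5.09% of all genes). The 5 genes gained were CDK1 (0.59, limma adjusted p = 0.0064), NDC80 (0.31, limma adjusted p = 0.021), NUF2 (0.19, limma adjusted p = 0.042), KIF20A (0.61, limma adjusted p = 0.03) and CKAP2L (0.60, limma adjusted p = 0.00021). When library 1 was left out and the values were also rescaled, CKAP2L alone of these passed (0.38, limma adjusted p = 0.014). The others had limma adjusted p from 0.062 (NDC80) to 0.2 (NUF2).

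This comparison shares its untreated libraries with those above. MKI67 was at 0.8 TPM in IL-13 library 1 and at 3.5, 3.5, 3.3, 3.8 and 5 TPM in libraries 2 to 6, against 0.6 to 1.4 TPM untreated (log2 change 0.89 ± 0.22, limma adjusted p = 0.0013). Without library 1 its change was 1.12 ± 0.18 (limma adjusted p = 6.9e-06), and the day 3 range of 48.7 to 118.1 TPM was far above both. BIRC5 was at 1.5 TPM in library 1 and 7.7, 5.9, 8.6, 6.7 and 8.2 TPM in libraries 2 to 6, against 1.5, 2.3 and 2.7 TPM untreated (0.96 ± 0.24, limma adjusted p = 0.0019; 1.25 without library 1). Library 1 lay within the untreated range for both, and libraries 2 to 6 lay above it. HASPIN had the largest change, 1.09 ± 0.33 (limma adjusted p = 0.0078; 1.41 without library 1), at 0, 2.5, 2, 6.2, 1.8 and 3 TPM, against 0 to 2.5 TPM untreated, with overlap in either set of libraries.

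Among the kinases and cyclins, 4 of 9 rose (HASPIN and the 3 cyclins). CCNA2 was at 2.9 TPM in library 1 and 7.1 to 11.6 TPM in libraries 2 to 6, against 2.3 to 5.1 TPM untreated (0.61 ± 0.21, limma adjusted p = 0.017). CCNB1 had a change of 0.76 ± 0.22 (limma adjusted p = 0.0061). CDK1 at 0.36 (limma adjusted p = 0.16) and PLK1 at 0.28 (limma adjusted p = 0.18) did not pass with all libraries, and CDK1 passed without library 1. Of the checkpoint and anaphase-promoting complex genes, CDC20 (0.85 ± 0.26, limma adjusted p = 0.0076) and UBE2C (0.74 ± 0.15, limma adjusted p = 0.00024) rose. CDC20 was at 3.1 TPM in library 1 and 6.8 to 9.8 TPM in the others, against 1.2 to 4.6 TPM untreated. The checkpoint kinases TTK and BUB1 and the checkpoint protein BUB1B, all below 1 TPM, did not pass.

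CENPA rose from 1.5, 2.2 and 2.6 TPM untreated to 2 TPM in library 1 and 4.2 to 5 TPM in libraries 2 to 6 (0.60 ± 0.11, limma adjusted p = 6.4e-05), with library 1 inside the untreated range. CENPF also rose (0.56 ± 0.16, limma adjusted p = 0.0062), at 0.7 TPM in library 1 and 1.3 to 2 TPM in the others, against 0.2 to 0.9 TPM. Of the 7 kinesins KIF2C and KIF23 rose. KIF20A, at 1, 1.8, 0.6, 3.1, 2 and 1.9 TPM against 0.4 to 1.3 TPM, did not pass with all libraries (0.53 ± 0.23, limma adjusted p = 0.055). It passed without library 1, but not with rescaling as well (0.45, limma adjusted p = 0.15), and ranged from 0.40 to 0.67 when leaving out single libraries. KIF14, which recruits citron kinase to the midbody, was at 0.1 to 0.3 TPM (0.01 ± 0.13, limma adjusted p = 0.97). PRC1 and TPX2, an activator of Aurora A, rose among spindle genes. PRC1 was at 1.4 TPM in library 1 and 3.3 to 4.9 TPM in the others, against 1.5 to 2.8 TPM (0.42 ± 0.16, limma adjusted p = 0.029), while DLGAP5, at 0.1 to 0.3 TPM, changed by -0.01 ± 0.17 (limma adjusted p = 0.96). Genes at such levels can show little on this scale. AURKB (0.66 ± 0.22, limma adjusted p = 0.014) and TOP2A (0.84 ± 0.21, limma adjusted p = 0.0018) rose, whereas ANLN (-0.36, limma adjusted p = 0.18) and ECT2 (-0.05, limma adjusted p = 0.75) did not pass.

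PTTG1 fell under IL-13. It was at 40.6, 26.9, 32.7, 29.7, 24.4 and 24.8 TPM in libraries 1 to 6, against 35.3, 51.9 and 70.6 TPM untreated, a log2 change of -0.83 ± 0.17 (limma adjusted p = 0.00022). Library 1 lay in the untreated range and libraries 2 to 6 below it, with a change of -0.92 ± 0.17 without library 1 (limma adjusted p = 5e-05). PTTG1 thus took 53.4% of the summed TPM in library 1 and 17.3 to 26.7% in the others.

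The count of rises moved with the scale and the libraries. With median-of-ratios rescaling 11 of the 39 were higher and 1 lower, the background became 19.3% higher and 20.6% lower, and the median of the 39 was 0.18 while that of all genes was 0.00. The calls lost were those of CCNA2 (0.40, limma adjusted p = 0.12), AURKB (0.49, limma adjusted p = 0.062), KIF23 (0.30, limma adjusted p = 0.086), PRC1 (0.24, limma adjusted p = 0.21) and TPX2 (0.20, limma adjusted p = 0.21). On the rescaled values of all libraries, the share of mitosis genes that rose (11 of 39) thus lay above the background of 19.3%. Rescaling without library 1 gave 16 higher and 1 lower, against 21.9% and 23.1%, which is no separate evidence for the reason given above. The IL-13 columns could be matched to the group but not to a batch each (the labels put 5 in batch 1 and 1 in batch 2), and against the untreated libraries of batch 1 alone 9 of the 39 were higher and 1 lower (17.8% and 7.04% of all genes).

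The batches differed most in the monolayer. In batch 2, 37 of the 39 were lower than in batch 1 and none higher, where limma called 31.7% of all genes lower and 24.7% higher. The sum over the 40 genes was 1839.5 to 1961.3 TPM in batch 1 and 973.5 to 1026.9 TPM in batch 2, with no overlap. ANLN had the largest difference, 47.1 ± 2.38 TPM (mean ± SD, 5 libraries) in batch 1 and 19.3 ± 1.16 TPM (5 libraries) in batch 2, a log2 difference of -1.25 ± 0.13 (limma adjusted p = 8.3e-09). CENPA (-0.29, limma adjusted p = 0.053) and CENPE, a kinetochore kinesin (-0.14, limma adjusted p = 0.46), did not pass. With mitochondrial genes taken out, 27 of the 39 were lower in batch 2, and the background became 23.1% lower and 28.3% higher.

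In day 3 spheroids limma called none of the 39 between batches, nor any of all genes tested (0% higher and 0% lower), while 15 of the 39 had an unadjusted p under 0.05. In untreated day 11 spheroids 2 of the 39 were higher in batch 2 and none lower, against 2.92% and 27% of all genes. These were ANLN, at 3.05 ± 0.574 TPM (4 libraries) and 5.07 ± 0.757 TPM (3 libraries), with a log2 difference of 0.59 (limma adjusted p = 0.0093), and PTTG1 (0.46, limma adjusted p = 0.02). With rescaling 3 were higher, and the background became 13.6% higher and 10.8% lower.

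A batch interaction, the change in batch 2 minus that in batch 1, was called for some genes. Interactions that start from the monolayer reuse its libraries, in which nearly all of the 39 were lower in batch 2. They are thus not separate from that difference. Between monolayer and day 3, the change of 9 of the 39 differed by a batch interaction (CDK1, PLK1, TTK, BUB1B, PTTG1, KIF11, DLGAP5, BIRC5 and ANLN), each with the more positive change in batch 2, against 20.1% of all genes in that direction and 16.2% in the other. The count of 9 was thus near the background. BIRC5 changed by -1.05 within batch 1 (limma adjusted p = 1.2e-05) and by -0.14 within batch 2 (limma adjusted p = 0.36). MKI67 changed by -1.42 and -1.06, and its interaction did not pass. Between day 3 and day 11 ANLN alone differed between batches (0.87, limma adjusted p = 0.023), where the background was 0.565% and 5.62%. Between monolayer and day 11, 21 of the 39 differed, each with the more positive change in batch 2. Of all genes, 13.1% were called in that direction and 27.3% in the other. With mitochondrial genes taken out, the day 3 interaction was called in 1 gene (background 6.64% and 28.2%). With rescaling, those from day 3 and from the monolayer to day 11 were called in 2 genes (4.25% and 3.36%) and 22 genes (23% and 20.9%).

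Other genes of cell division, sorted into 7 lists, followed the mitosis genes to differing degrees between day 3 and untreated day 11, where the background was 35.8% lower and 33.6% higher. Of 26 tested genes of the checkpoint and kinetochore outside the 40, 22 fell and 1 rose (median -1.13), with ZWINT (-3.52) and SPC24 (-3.18), both kinetochore proteins, furthest down and CENPT (0.39) up. Of 9 further passenger and cytokinesis genes, 8 fell, led by the abscission protein CEP55 (-2.97), and RHOA rose (0.22). Of 24 genes of the G1/S step and DNA replication, 21 fell and none rose (median -1.60), led by the replicative helicase subunit MCM2 (-2.83) and the ribonucleotide reductase subunit RRM2 (-2.73). CCND1, cyclin D1, fell by 1.95 on the log2 scale. Of 19 condensin and cohesin genes, 13 fell and 3 rose (median -0.89); CDCA5 (sororin), which protects cohesin in mitosis, changed by -2.51 and the cohesin regulator PDS5A by 0.46.

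The regulators of the genes did not move as one. Of 19 tested transcription factors and DREAM or MuvB subunits, 10 fell and 4 rose (median -0.54), against the same background of 35.8% and 33.6%. FOXM1 was at 34.5, 55.45 and 76.3 TPM in the monolayer, 14.2, 17.6 and 33.1 TPM on day 3 and 0.6, 1.5 and 1.8 TPM in untreated day 11 spheroids, with no overlap between any of the groups. Its log2 change from day 3 was -3.28 (limma adjusted p = 1.7e-15), and MYBL2 (B-MYB) changed by -2.45. LIN37, a MuvB subunit needed for repression, rose by 0.90, and RBL2 (p130, the pocket protein of DREAM) changed by -0.07 and did not pass (limma adjusted p = 0.48). E2F4, its partner, fell by 0.56. Of 16 anaphase-promoting complex subunits and cofactors, 8 fell and 5 rose. UBE2S, which extends ubiquitin chains, changed by -2.14, and FZR1 (CDH1), the activator that acts outside mitosis, by 0.29 (limma adjusted p = 0.0023), opposite to CDC20. Of 8 inhibitors of cyclin-dependent kinases, 5 rose and 3 fell (median 0.99). CDKN1A (p21) went from 150.9 to 335.5 TPM on day 3 to 837.8 to 1045.6 TPM on day 11 (2.20, limma adjusted p = 2.3e-12), and CDKN2D (p19) rose by 2.31. CDKN1B (p27) rose by 0.70, while CDKN2A (-1.31) and CDKN3, a phosphatase of cyclin-dependent kinases that is itself expressed in dividing cells, fell.

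**Figure D5:**
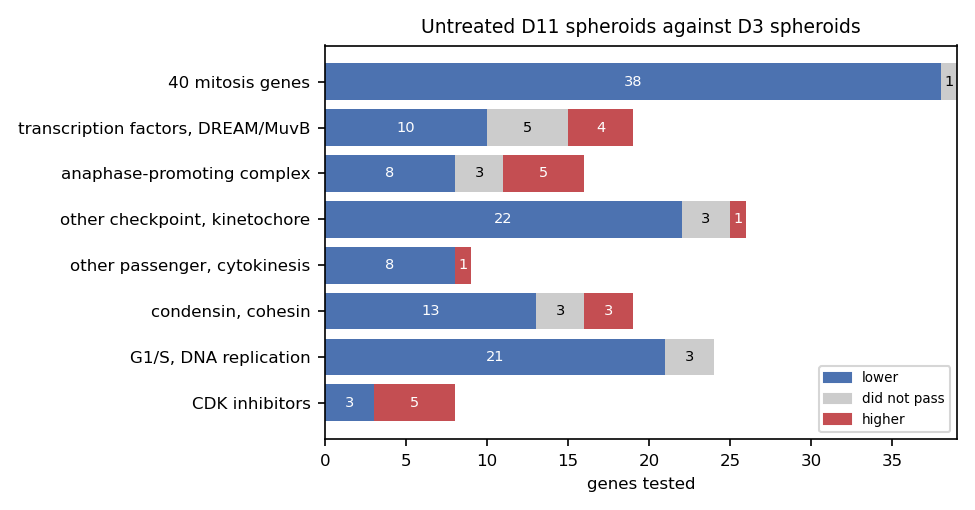
Number of tested genes that were lower, did not pass or were higher in untreated day 11 against day 3 spheroids, for the 40 mitosis genes and 7 lists of related genes. Lower calls make up 38 of 39 mitosis genes and 21 of 24 G1/S and replication genes, and higher calls make up 5 of 8 inhibitors of cyclin-dependent kinases.

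Between monolayer and day 3 the same lists had 21 of 26, 8 of 9, 13 of 24 and 19 of 19 genes lower, in the order given for the first 4 lists, where 68.2% of all genes were lower. With rescaling these counts were 12, 5, 2 and 9 lower and 5, 1, 3 and 1 higher, against 33.2% each way. Before rescaling, FOXM1 changed by -1.28 and CDKN1A by -0.69. Under IL-13, FOXM1 rose by 0.88 ± 0.21 (limma adjusted p = 0.0012), from 0.6, 1.5 and 1.8 TPM to 0.9, 4.4 and 6.6 TPM, with overlap. MYBL2 (0.61, limma adjusted p = 0.0096), ZWINT (1.30, limma adjusted p = 0.00056), MCM2 (0.88, limma adjusted p = 0.017) and CCND1 (0.73, limma adjusted p = 0.00013) rose as well. FZR1 fell by 0.31 (limma adjusted p = 0.0059), and CDKN1A (0.28, limma adjusted p = 0.23) and CDKN1B (-0.11, limma adjusted p = 0.37) did not pass. In all, 9 of 26 further checkpoint and kinetochore genes and 4 of 24 G1/S and replication genes rose and none fell, against the background of 39.2% higher. With rescaling, 7 of the 26 and 1 of the 24 rose, and 0 and 1 fell, against 19.3% higher and 20.6% lower. Of the other lists on that scale, 4 of 19 transcription factors and DREAM or MuvB subunits rose and 3 fell. Of 16 anaphase-promoting complex genes 4 rose and 3 fell, and of 9 passenger and cytokinesis genes 1 rose and 0 fell. Of 19 condensin and cohesin genes 1 rose and 5 fell, and of 8 inhibitors of cyclin-dependent kinases 1 rose and 2 fell. Without IL-13 library 1, 14 of the 26 rose and none fell, against 50.2% higher and 8.4% lower.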

How the data were processed

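RNA of 32 libraries was analysed from 1 table of TPM values, deposited by the authors with 1 decimal and the same total in each library. It holds no read numbers, so the depth behind a value is unknown. The submitters' processing notes name the build hg38. Which programs aligned and quantified the reads, with which annotation and strand setting, is not given in the sources used here. Columns were matched to samples by title and, for IL-13, to the group only.

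Genes with at least 1 TPM in at least 6 libraries (12221 of 19345) were tested on log2(TPM + 1) with limma 3.58.1 in R 4.3.3. The model had group and batch terms over all 32 libraries and a trended variance, with Benjamini-Hochberg adjustment over all genes tested and calls at 0.05. The batch term of each IL-13 library was 0.167, the share of that group in batch 2. Contrasts of batches came from a model over all 32 libraries with 1 mean per group and batch, and 1 mean for IL-13 with no batch. The IL-13 libraries thus entered its estimate of the spread but none of its contrasts. Before use, this model was tested on simulated data holding known fold changes. Figures were drawn with Python 3.11.15 and matplotlib 3.10.9. Promoters came from RefSeq (GRCh38.p14), gene positions and overlaps from GENCODE 29. Of the 40 genes, 25 overlap another gene and 16 share exon bases with one.

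The genes and lists were chosen with earlier results of these data known. Values are given in full for the gene with the highest mean TPM of each role and for those with the largest and smallest change in each comparison, and other genes as needed. Alternatives tried were other pseudocounts, filters and scalings, removal of mitochondrial genes, single batches, no batch term, the compared groups alone, weighted libraries, a replicate block and leaving out each library; 4 were added after the data were seen.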

Additional observations from a re-analysis of the deposited data

Results flagged for a closer look

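Among 60 groups of values examined, of which chance would set apart about 1 in 20, 5 had a library far from the rest. In untreated day 11 spheroids the highest of 7 libraries was apart for HASPIN (2.5 TPM, next 0.8), DLGAP5 (0.2 TPM, next 0.1), KIF15 (0.2 TPM, next 0.1) and KIF14 (0.2 TPM, next 0.1). The last 3 differ by 1 step of the table's rounding. The sum over the 40 genes under IL-13 was lowest in library 1, at 76 TPM, and next lowest at 119.9 TPM.

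The change of 9 genes between monolayer and day 3, of 1 gene between day 3 and untreated day 11 and of 21 genes between monolayer and untreated day 11 differed between batches in limma's interaction test. Each of these had the more positive change in batch 2. In the same order, 20.1%, 0.565% and 13.1% of all genes tested were called with the more positive change in batch 2. The more negative change in batch 2 was called in 16.2%, 5.62% and 27.3%. The count of 9 was thus near the background. As change in batch 2 minus change in batch 1, DLGAP5 had 0.70 between monolayer and day 3 (limma adjusted p = 0.015). Between monolayer and day 11, CDC20 had 1.20 (limma adjusted p = 0.018), KIF15 had 0.30 (limma adjusted p = 0.03) and PTTG1 had 1.26 (limma adjusted p = 6.5e-06).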

How the results depend on the processing

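The 38 lower genes of day 11 against day 3 and against the monolayer were lower under each alternative in which they were tested. Other counts of genes called by limma, out of 39, moved by over 1.5 times, and the cause was not tested. For day 3 against monolayer, lower calls went from 34 to 16 with rescaling, 17 with quantile normalization and 16 with rescaling without day 3 libraries 4 and 7; higher calls went from 1 to 0 in batch 1 alone and with the replicate block. For day 11 against day 3, higher calls went from 0 to 1 in batch 2 alone and with the compared groups alone (0 to 1 when leaving out single libraries; PTTG1 without untreated library 2). For day 11 against monolayer, higher calls went from 1 to 0 with mitochondrial genes removed, batch 1 alone or weighted libraries. For IL-13, higher calls went from 16 to 5 with a pseudocount of 5, 8 with quantile normalization, 31 with weighted libraries and 9 against untreated batch 1 alone (12 to 21 when leaving out single libraries); lower calls went from 1 to 2 against untreated batch 2 alone. Backgrounds of higher calls were 37.8% with the pseudocount, 19% with quantile normalization and 48.8% with weighted libraries.

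For batch 2 against batch 1 on day 3, lower calls went from 0 to 27 without libraries 4 and 7 and 35 with weighted libraries (0 to 16 when leaving out single libraries). Libraries 4 and 7 were left out because their levels go against their batch labels, so the 27 calls give no evidence of a batch difference. Weighting lowers the part of libraries far from the mean of their group and batch, so the 35 calls are no better evidence. The same holds for the interaction calls below with libraries 4 and 7 left out or with weights. Most counts in this paragraph have no share over all genes beside them and are not read as results about the mitosis genes. In untreated day 11 spheroids, higher calls went from 2 to 0 with mitochondrial genes removed (1 to 2 when leaving out single libraries) and lower calls from 0 to 10 with weighted libraries (0 to 2). For the batch interaction of day 3 against monolayer, higher calls went from 9 to 25 with a pseudocount of 5, 1 with mitochondrial genes removed and 3 without libraries 4 and 7 (5 to 17 when leaving out single libraries), and lower calls from 0 to 1 without libraries 4 and 7 or with weighted libraries. For that of day 11 against day 3, higher calls went from 1 to 2 with rescaling or quantile normalization, 0 with mitochondrial genes removed, 16 without libraries 4 and 7 and 19 with weighted libraries (0 to 5 when leaving out single libraries). For that of day 11 against monolayer, they went from 21 to 32 with a pseudocount of 5 and 10 with mitochondrial genes removed.

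CDC25C on day 3 against monolayer turned to 0.040, 0.033 and 0.025 with rescaling, quantile normalization and rescaling without libraries 4 and 7 (6 other genes also changed sign with rescaling), and PTTG1 on day 11 against day 3 to -0.32 with mitochondrial genes removed. Replicate numbers did not pair the libraries: the correlations of same-numbered deviations were -0.44 to 0.36 for 9 monolayer and day 3 pairs (4 over 0.1) and -0.16 to 0.16 for 7 day 3 and day 11 pairs. The replicate block gave 36 lower and 0 higher genes on day 3 and 38 lower on day 11. No paired analysis was possible for IL-13 because its columns match the group and not single samples.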
